A study of Drosophila melanogaster with 6 samples.

Results

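The chorion gene amplicon intervals are a pair of stretches of the Drosophila melanogaster genome, each chosen because it holds a cluster of eggshell genes. On build dm3 they were X 8200001 to 8700000, which holds the 7F cluster, and 3L 8500001 to 8900000, which holds the 66D cluster. They were taken by position alone, as the 100 bp windows of the deposited files that fall inside them. The 7F interval held 5000 windows and the 66D interval 4000, together 9000 of the 1203812 windows on the 6 major arms.

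Chorion genes encode the proteins of the eggshell, which the somatic follicle cells lay down around the growing oocyte. To make enough messenger RNA in a short time, follicle cells of late egg chambers fire replication origins inside these clusters again and again, so that the DNA there rises above the rest of the genome. Forks that move out from the origins give a gradient that is highest at the cluster and falls with distance on both sides, far beyond the genes themselves. In the fully grown ovary the 66D cluster is known to amplify more than the 7F cluster. The 7F cluster holds Cp7Fa, Cp7Fb, Cp7Fc, Cp36 and Cp38, and the 66D cluster holds Cp18, Cp15, Cp19 and Cp16, all in uninterrupted order in the RefSeq gene table, which matched all 9. That table is of Release 6, so it gives the order of the genes but not their dm3 positions, and where the genes lie inside each interval was not determined. DNA libraries carry no expression, so the chorion genes have no level of their own here.

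The series examined where Su(Hw), a zinc finger protein of the gypsy insulator, sits in ovary chromatin. The libraries came from ovaries of virgin females less than 6 h old, of the su(Hw)f mutant (strain label su(Hw)fv) and of wild type (Canton S). Each genotype had 1 preimmune library, which is chromatin brought down by serum without the specific antibody, and 1 input library, which is sheared chromatin before precipitation. The 2 libraries made with antibody against Su(Hw) are not analysed here. The genotypes are different strains, so the mutation and the strain background cannot be told apart. Whole ovaries mix germ cells with follicle cells. An absence of amplification, few amplifying cells and weak amplification in each could not be told apart from these counts.

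Totals were 20130453 reads (su(Hw)f preimmune), 12173312 (wild-type preimmune), 20596448 (su(Hw)f input) and 13993582 (wild-type input), with 97.4% to 98.5% on the major arms. With 1 library per group no test was possible, and no difference has a replicate check. Intervals in the text are 95% exact conditional (Clopper-Pearson) intervals of counting error only. The spread between windows was far wider than counting error. Across the 20 kb windows of the 7F interval the SD of the level was 0.289 in su(Hw)f input and 0.178 in wild-type input, where counting error alone gives 0.0174 and 0.0208.

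The first question was whether the intervals as a whole held more DNA than the rest of their arm. In the inputs the 7F interval did not. Its mean count per 100 bp window was 0.965 times that of the rest of X in su(Hw)f input (0.959 to 0.972) and 0.975 times in wild-type input (0.967 to 0.983). In preimmune it was 0.990 times (0.983 to 0.997) in su(Hw)f and 1.047 times (1.038 to 1.056) in wild type. Without the windows that had no reads in all 4 libraries the 7F level was 0.914 in su(Hw)f input and 0.923 in wild-type input. Without them it was 0.937 in su(Hw)f preimmune and 0.991 in wild-type preimmune, so that wild-type preimmune changed sides.

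The mean count of the 66D interval was above that of the rest of 3L by a small margin. It stood at 1.18 times in su(Hw)f input (1.17 to 1.18) and 1.14 times in wild-type input (1.13 to 1.15). In preimmune it was at 1.12 times (1.11 to 1.13) in su(Hw)f and 1.038 times (1.027 to 1.048) in wild type. Of the 100 bp windows of 3L as a whole, 7.03% had no reads in all 4 libraries, against 1.82% inside the 66D interval. Without such windows the 66D level was 1.11 in su(Hw)f input and 1.08 in wild-type input. In preimmune it was then 1.061 in su(Hw)f and 0.982 in wild type, which lay below its arm.

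The profile in 20 kb windows, each given as a multiple of the arm's median 20 kb window, asked for a peak anywhere inside the intervals. An arm median window held 3302 reads on X in su(Hw)f input and 2258 in wild-type input, and 3148 and 2223 on 3L in the same order.

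In the 7F interval the highest 20 kb window of both inputs was X 8480001 to 8500000. In su(Hw)f input it had 6080 reads, 1.84 times the arm median, and in wild-type input 3295 reads, 1.46 times. The neighbouring windows did not share this height. The window before it, X 8460001 to 8480000, stood at 1.08 in su(Hw)f input and 1.05 in wild-type input. The window after it, X 8500001 to 8520000, stood at 0.684 and 0.759 in the same order and was the lowest of the interval in su(Hw)f input. The second high window, X 8440001 to 8460000, was at 1.60 in su(Hw)f input and 1.32 in wild-type input. The next highest was X 8600001 to 8620000, apart from both, at 1.36 in su(Hw)f input and 1.20 in wild-type input. The lowest window in wild-type input was X 8540001 to 8560000, at 0.756. In 20 kb windows the 7F profile therefore showed 2 single high windows. Between them was a window near the arm median, and after the second a lower one. The window between them was not even. In 10 kb windows it stood at 1.31 and then 0.866 in su(Hw)f input, and at 1.22 and 0.898 in wild-type input. At 1.5 times the arm median the 20 kb windows numbered 2 of 25 in su(Hw)f input (12.3% over all of X) and 0 in wild-type input (4.82%). No 7F window of the preimmune libraries reached it (0.178% in su(Hw)f, 0.357% in wild type).

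Windows as high as these were found elsewhere on X. Of the 1121 windows of 20 kb on X, 44 (3.93%) were at or above the 7F maximum in su(Hw)f input and 72 (6.42%) in wild-type input. These counts include the 7F maximum itself. The highest window of X reached 2.64 in su(Hw)f input and 1.76 in wild-type input. In preimmune X 8480001 to 8500000 was at 1.12 in su(Hw)f and 0.880 in wild type. The highest 7F window in preimmune was X 8440001 to 8460000 in su(Hw)f, at 1.14, and X 8240001 to 8260000 in wild type, at 1.29. The highest windows of the inputs were thus not those of wild-type preimmune.

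At 66D the highest windows lay on the side of lower coordinates. The last window at the other edge, 3L 8880001 to 8900000, stood at 1.32 in su(Hw)f input and 1.24 in wild-type input. The highest was 3L 8580001 to 8600000 in su(Hw)f input, with 5421 reads and a level of 1.72, and it was at 1.41 in wild-type input. The highest in wild-type input was 3L 8500001 to 8520000, the first window of the interval, with 3176 reads and a level of 1.43, and it was at 1.57 in su(Hw)f input. The lowest was 3L 8840001 to 8860000 in su(Hw)f input, at 0.903, and 3L 8780001 to 8800000 in wild-type input, at 0.888. Of the 1227 windows of 20 kb on 3L, 31 (2.53%) were at or above the 66D maximum in su(Hw)f input and 49 (3.99%) in wild-type input. These counts include the 66D maximum itself. In preimmune 3L 8580001 to 8600000 was the highest 66D window in su(Hw)f, at 1.22, and at 0.810 in wild type. At 1.5 times the arm median there were 2 of 20 windows in su(Hw)f input (7.91% over all of 3L) and 0 in wild-type input (1.71%), and none in the preimmune libraries (0.163% in su(Hw)f, 0.407% in wild type).

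**Figure D1:**
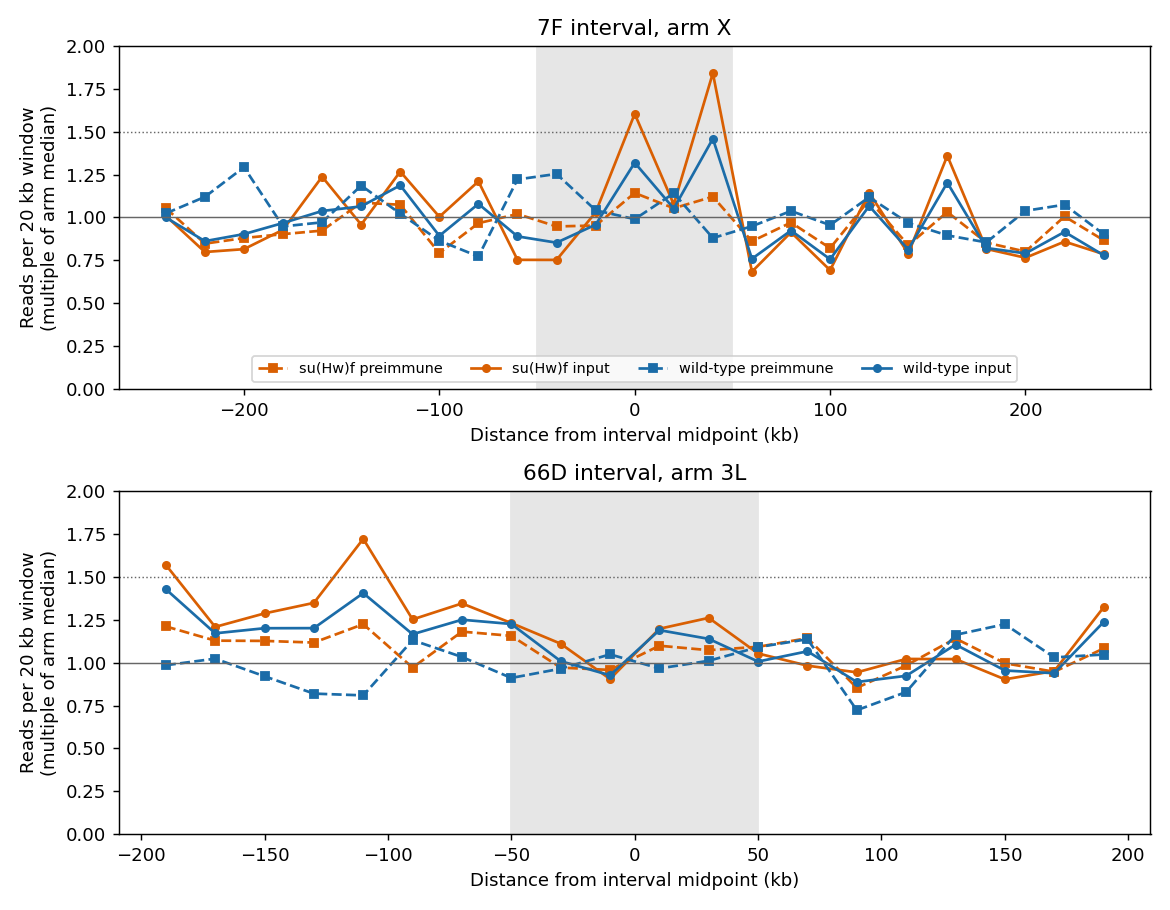
Reads per 20 kb window as a multiple of the arm's median window (y axis), by distance from the interval midpoint in kb (x axis), for su(Hw)f (orange) and wild type (blue), preimmune (dashed, squares) and input (solid, circles). Grey marks the central 100 kb, the solid line an arm median of 1 and the dotted line a level of 1.5; the 7F inputs rise in 2 separate windows, up to 1.84 in su(Hw)f and 1.46 in wild type, and the 66D inputs are higher on the side of lower coordinates.

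Shorter windows were counted against the same threshold of 1.5 times the arm median. Among 10 kb windows, su(Hw)f input had 3 of 50 windows in the 7F interval (16.5% over all of X) and wild-type input had 1 (6.82% over X). The 3 were X 8450001 to 8460000, at 2.07, X 8480001 to 8490000, at 1.76, and X 8490001 to 8500000, at 1.96. The first of them was also the 1 in wild-type input, at 1.56. At 66D su(Hw)f input had 6 of 40 windows (11.5% over all of 3L) and wild-type input had 1 (3.99% over 3L). The 7F shares of 6% and 2% lay below the shares of the arm. The 66D share was 15% in su(Hw)f input and 2.5% in wild-type input, on either side of the arm's. Neither preimmune library had a raised 10 kb window in the 7F interval (0.357% over X in su(Hw)f, 0.58% in wild type) or the 66D interval (0.244% and 0.652% over 3L in the same order).

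At the smaller scale of 5 kb, su(Hw)f input had 15 of 100 raised windows in the 7F interval (19.2% over X) and wild-type input had 6 (9.39%), and all 6 were among the 15. Among the 80 windows at 66D su(Hw)f input had 19 (14.5% over 3L) and wild-type input had 7 (6.05%), and all 7 were among the 19. In preimmune the 7F interval had 0 in su(Hw)f (0.959%) and 2 in wild type (2.5%), and the 66D interval had 0 in su(Hw)f (0.733%) and 1 in wild type (2.16%). With 0 raised in su(Hw)f preimmune, no 5 kb window could be raised in all 4 libraries. At 66D the 6 raised windows of 10 kb in su(Hw)f input all lay between 3L 8500001 and 8600000, at 1.51 to 1.79, and the 1 in wild-type input was the first of them, 3L 8500001 to 8510000, at 1.53. The highest 5 kb windows were X 8490001 to 8495000, at 2.26 in su(Hw)f input and 1.65 in wild-type input, and 3L 8555001 to 8560000, at 1.95 in su(Hw)f input and 1.63 in wild-type input.

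The length over which windows stayed raised measured how broad these features were. At 7F the longest unbroken run of raised 5 kb windows was 20 kb in su(Hw)f input (X 8480001 to 8500000) and 10 kb in wild-type input (X 8450001 to 8460000). On X as a whole the longest such run was 75 kb in su(Hw)f input and 55 kb in wild-type input. At 66D it was 20 kb in su(Hw)f input (3L 8550001 to 8570000) and 10 kb in wild-type input (3L 8500001 to 8510000), against 75 kb and 30 kb on 3L as a whole. The 66D run in wild-type input begins at the edge of the interval, so it may reach beyond it.

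Whether neighbouring windows of the 7F interval were alike depended on their length. The correlation of each 20 kb window with the next was -0.09 in su(Hw)f input and -0.10 in wild-type input over 24 pairs, while over all of X it was 0.577 and 0.555 in the same order. For 5 kb windows it was 0.368 in su(Hw)f input and 0.361 in wild-type input over 99 pairs, against 0.580 in both over all of X. At 66D the 20 kb value was 0.474 in su(Hw)f input and 0.386 in wild-type input over 19 pairs, against 0.597 and 0.612 over 3L. These are descriptions over adjoining windows of 1 library each.

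The shape asked for directly was a high centre between lower flanks. The centre was fixed as the middle 100 kb of each interval, X 8400001 to 8500000 and 3L 8650001 to 8750000. In the 7F interval it held 20816 reads in su(Hw)f input, or 20.8 per 100 bp window, against 15.5 in the flanks, a ratio of 1.34 (1.32 to 1.36). Wild-type input held 12738 reads, or 12.7 per window, against 10.6 in the flanks, a ratio of 1.21 (1.18 to 1.23). The ratio in preimmune was 1.116 (1.097 to 1.135) in su(Hw)f and 1.050 (1.027 to 1.073) in wild type. By median 1 kb windows the su(Hw)f ratio was 1.14 for input against 1.13 for preimmune. That of wild type was 1.08 against 1.026. The gap between input and preimmune was thus smaller by medians than by means in both genotypes. Inside the centre the 5 windows of 20 kb stood at 0.753, 1.03, 1.60, 1.08 and 1.84 in su(Hw)f input, in order along the chromosome. In wild-type input they stood at 0.853, 0.958, 1.32, 1.05 and 1.46. Of these the middle window and the last were the high ones.

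The 66D interval had no high centre. Its centre over flanks was 0.895 in su(Hw)f input (0.880 to 0.911) and 0.916 in wild-type input (0.897 to 0.935). In preimmune it was 0.960 (0.944 to 0.977) in su(Hw)f and 1.025 (1.002 to 1.048) in wild type.

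The same ratio was taken over adjacent tiles of equal size on the 5 large arms. The chorion interval is itself a tile and is counted among them. None of the 8 values of the chorion intervals reached 1.5. Of 233 tiles of 500 kb, 2 did in su(Hw)f input (0.858%), and 1 did in wild-type input and in each preimmune library (0.429%). Of 294 tiles of 400 kb, 6 did in su(Hw)f input (2.04%), and 1 did in wild-type input and in each preimmune library (0.34%). The 7F value was matched or passed by 13 tiles in su(Hw)f input (5.58%) and by 22 in wild-type input (9.44%). The 66D value was matched or passed by 214 tiles in su(Hw)f input (72.8%) and by 219 in wild-type input (74.5%). In preimmune 40 tiles (17.2%) in su(Hw)f and 76 (32.6%) in wild type were at or above the 7F value. For the 66D value these were 198 (67.3%) and 107 (36.4%) in the same order.

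**Figure D2:**
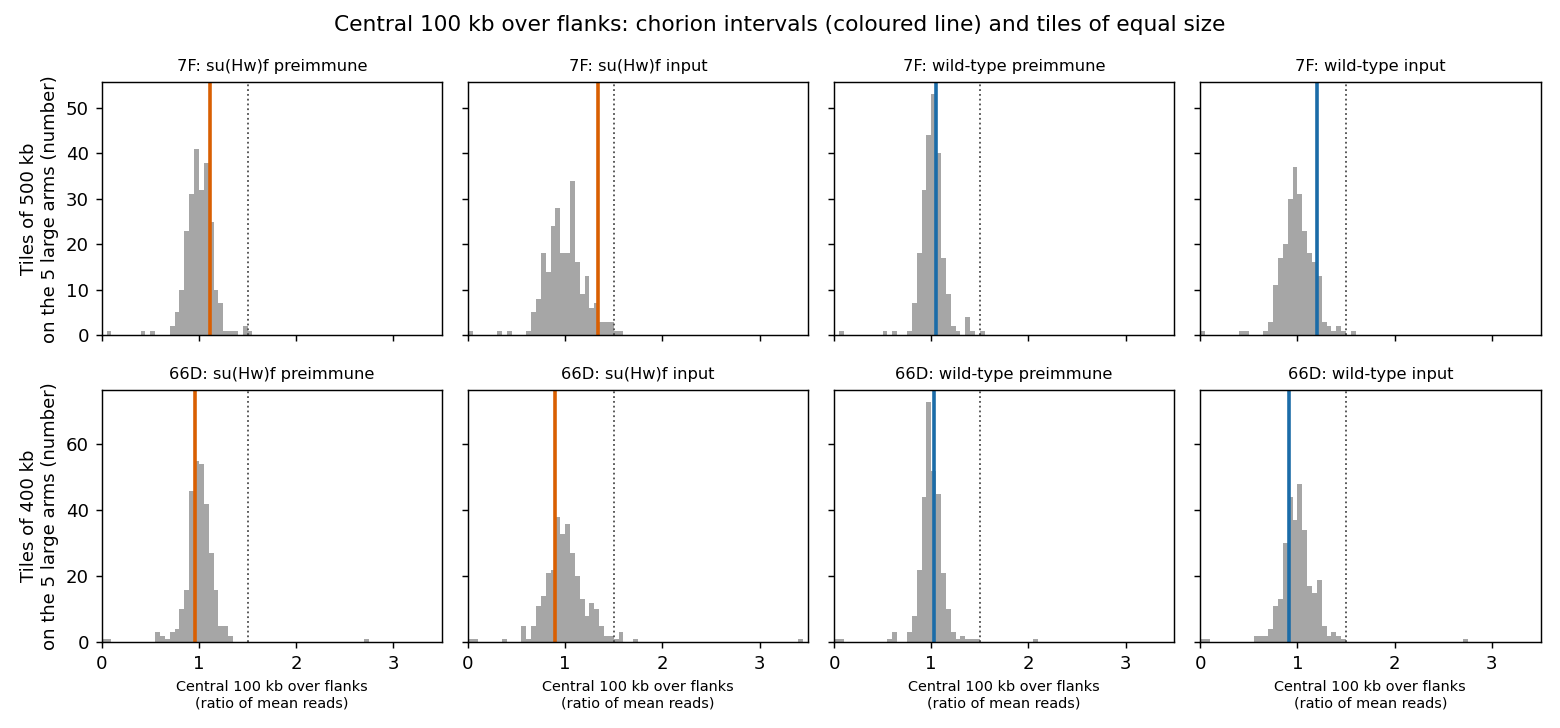
Number of tiles (y axis) by the ratio of mean reads in the central 100 kb to the flanks (x axis), for tiles of 500 kb (top) and 400 kb (bottom) on the 5 large arms, in each library. The coloured line is the chorion interval and the dotted line 1.5; the 7F lines sit on the upper side of the input tiles, at 1.34 in su(Hw)f and 1.21 in wild type, and the 66D lines at 0.895 and 0.916.

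Since the place of the genes inside the intervals was not determined, the 100 kb segment was also moved along each interval in 10 kb steps, an alternative added after the data were seen. In the 7F interval it was highest at the midpoint itself in su(Hw)f input (1.34) and in wild-type input (1.21), over 41 positions. At 66D it was highest at 3L 8550001 to 8650000 in su(Hw)f input, at 1.30 (1.28 to 1.33), and at 3L 8500001 to 8600000, the edge of the interval, in wild-type input, at 1.20 (1.18 to 1.22), over 31 positions. No position in either interval reached 1.5 in the 4 libraries.

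**Figure D3:**
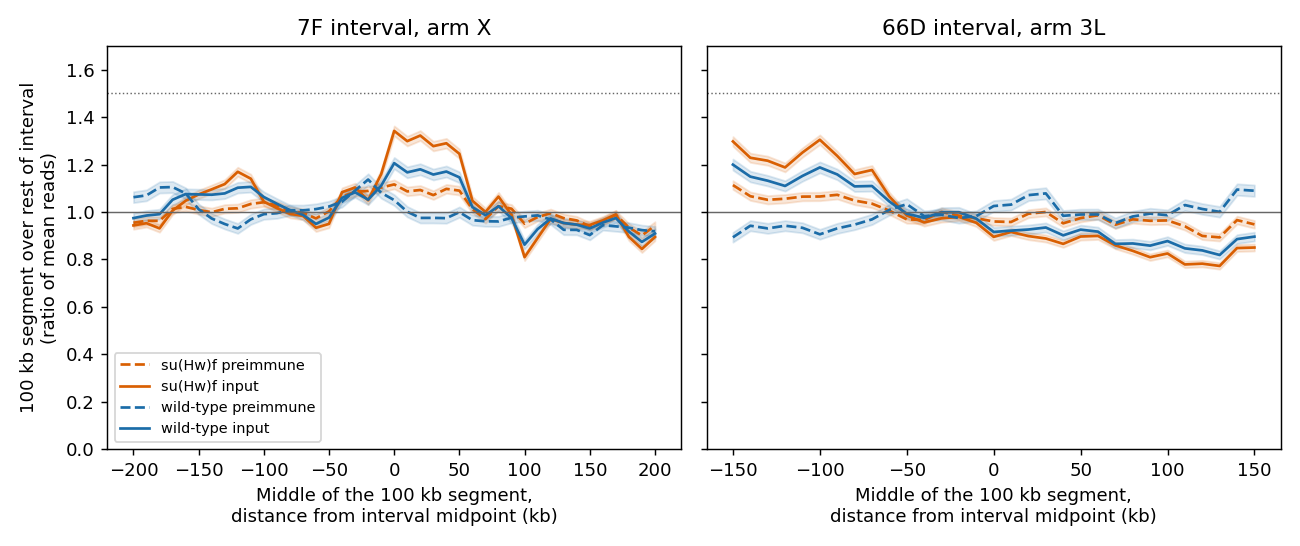
Mean reads of a 100 kb segment over the rest of its interval (y axis, ratio) by the distance of the segment's middle from the interval midpoint in kb (x axis), for su(Hw)f (orange) and wild type (blue), preimmune (dashed) and input (solid). Shading is the 95% counting interval and the dotted line 1.5; the inputs reach 1.34 and 1.21 at the 7F midpoint, and 1.30 and 1.20 on the lower-coordinate side of 66D.

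By distance from the midpoint, in 20 kb steps that average both sides, the 7F level in su(Hw)f input was 1.33 within 20 kb, 1.11 from 20 to 40 kb and 1.01 from 40 to 60 kb. In wild-type input it was 1.17, 1.06 and 0.936 over the same steps. From 60 to 80, 80 to 100 and 100 to 120 kb it was 0.968, 0.965 and 0.928 in su(Hw)f input, and 0.990, 0.944 and 0.891 in wild-type input. The level in su(Hw)f input was thus lower at each step out to 120 kb, and in wild-type input at each step but that from 60 to 80 kb. From 120 to 140 kb it was higher again, at 1.15 in su(Hw)f input and 1.13 in wild-type input. At 66D the step nearest the midpoint was at 1.05 in su(Hw)f input and 1.06 in wild-type input. The step farthest from it, from 180 to 200 kb, was at 1.45 in su(Hw)f input and 1.33 in wild-type input. The steps between did not climb evenly, with 1.08 in su(Hw)f input and 1.055 in wild-type input from 160 to 180 kb.

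The 66D interval was also split at its midpoint, a split chosen after its profile was seen and given as a description. The 200 kb of lower coordinates over the 200 kb of higher coordinates was 1.22 in su(Hw)f input (1.20 to 1.24) and 1.15 in wild-type input (1.13 to 1.17). In preimmune it was 1.061 in su(Hw)f (1.045 to 1.077) and 0.944 in wild type (0.926 to 0.962). The slant was in the same direction in both inputs, and the preimmune libraries lay on opposite sides of 1.

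The inputs of the genotypes had nearly the same shape inside the intervals. Over the 25 windows of 20 kb at 7F, Pearson's r between su(Hw)f input and wild-type input was 0.965 (Spearman's rho 0.938), and over the 20 windows at 66D it was 0.938 (rho 0.901). Between su(Hw)f preimmune and wild-type preimmune r was 0.196 at 7F and 0.0649 at 66D. Between preimmune and input it was 0.692 in su(Hw)f and -0.15 in wild type at 7F, and 0.704 and -0.12 at 66D in the same order. The windows are neighbours within 4 libraries and share base composition and mapping. Over the whole arms r between the inputs was 0.954 on X and 0.954 on 3L, so the likeness of the inputs was about as strong elsewhere. The other pairs had a higher r over the whole arms than inside the intervals. Between the preimmune libraries it was 0.658 on X and 0.744 on 3L. Between preimmune and input it was 0.809 on X and 0.851 on 3L in su(Hw)f, and 0.445 and 0.615 in wild type. Part of this contrast was smaller by rank. Over the arms rho between the preimmune libraries was 0.360 on X and 0.398 on 3L, against 0.227 at 7F and -0.05 at 66D. Between preimmune and input it was 0.818 and 0.833 over the arms in su(Hw)f, and 0.147 and 0.250 in wild type. In 5 kb windows rho between the preimmune libraries was 0.328 at 7F against 0.289 over X. At 66D it was -0.145 against 0.302 over 3L.

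The comparison of genotypes asked whether the mutant and wild type differ in DNA content at the chorion clusters. Scaled to 1000000 reads on the major arms, the 7F interval had 4085 reads in su(Hw)f input, against 4010 in wild-type input, a ratio of 1.019 (1.008 to 1.030). The rest of X was at 1.029, so scaled to the arm the ratio lay on the other side of 1, at 0.990. The 66D interval had 3668 such reads in su(Hw)f input, against 3637 in wild-type input, a ratio of 1.009 (0.997 to 1.020), with the rest of 3L at 0.981. With this scaling a difference at 66D was not detectable beyond counting error, but the ratio was 1.028 when scaled to the arm and 1.056 when scaled by the median 1 kb ratio. In preimmune the ratio of the mutant to wild type was 0.946 (0.935 to 0.957) at 7F, with 3939 scaled reads against 4164. At 66D it was 1.055 (1.042 to 1.068), with 3601 against 3413. These lay on opposite sides of 1 under each scaling used.

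No 10 kb window of input differed by 1.5-fold between genotypes, among 50 at 7F and 40 at 66D. Over the major arms 0.294% of windows were called higher in the mutant and 1.34% lower. The ratios ran from 0.751 to 1.33 at 7F and from 0.816 to 1.21 at 66D. In preimmune 1 window at 7F was lower in su(Hw)f (3.42% over the major arms) and none was higher (2.57%), and at 66D 2 windows were higher and none was lower. The 7F window was X 8240001 to 8250000, with 1454 reads in su(Hw)f preimmune against 1374 in wild-type preimmune, a scaled ratio of 0.636. The 66D windows were 3L 8560001 to 8570000, at 1.54, and 3L 8590001 to 8600000, at 1.55.

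At 1 kb, 10 of 495 windows of input at 7F were lower in su(Hw)f at 2-fold (2.25% over the major arms) and 1 was higher (0.226%), and none of 395 at 66D passed either way. The single higher window, X 8294001 to 8295000, had 311 reads in su(Hw)f input against 102 in wild-type input, a ratio of 2.06 (1.64 to 2.60). The window next to it, X 8295001 to 8296000, was at 1.84 (1.49 to 2.27). Next came X 8452001 to 8453000, inside a high 20 kb window, with 359 reads in su(Hw)f input against 138 in wild-type input, a ratio of 1.76 (1.44 to 2.16). The lowest with at least 50 reads in the pair were X 8263001 to 8264000, at 0.433, X 8461001 to 8462000, at 0.458, and X 8288001 to 8289000, also at 0.458. At 66D the highest were 3L 8678001 to 8679000, at 1.56 (1.21 to 2.02), 3L 8886001 to 8887000, at 1.502, and 3L 8566001 to 8567000, at 1.49. The lowest were 3L 8541001 to 8542000, at 0.511 (0.384 to 0.678), 3L 8764001 to 8765000, at 0.532, and 3L 8848001 to 8849000, at 0.544. In preimmune 27 of 495 at 7F were higher in su(Hw)f (5.96% over the major arms) and 34 lower (6.67%), and 43 of 395 at 66D were higher and 23 lower.

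**Figure D4:**
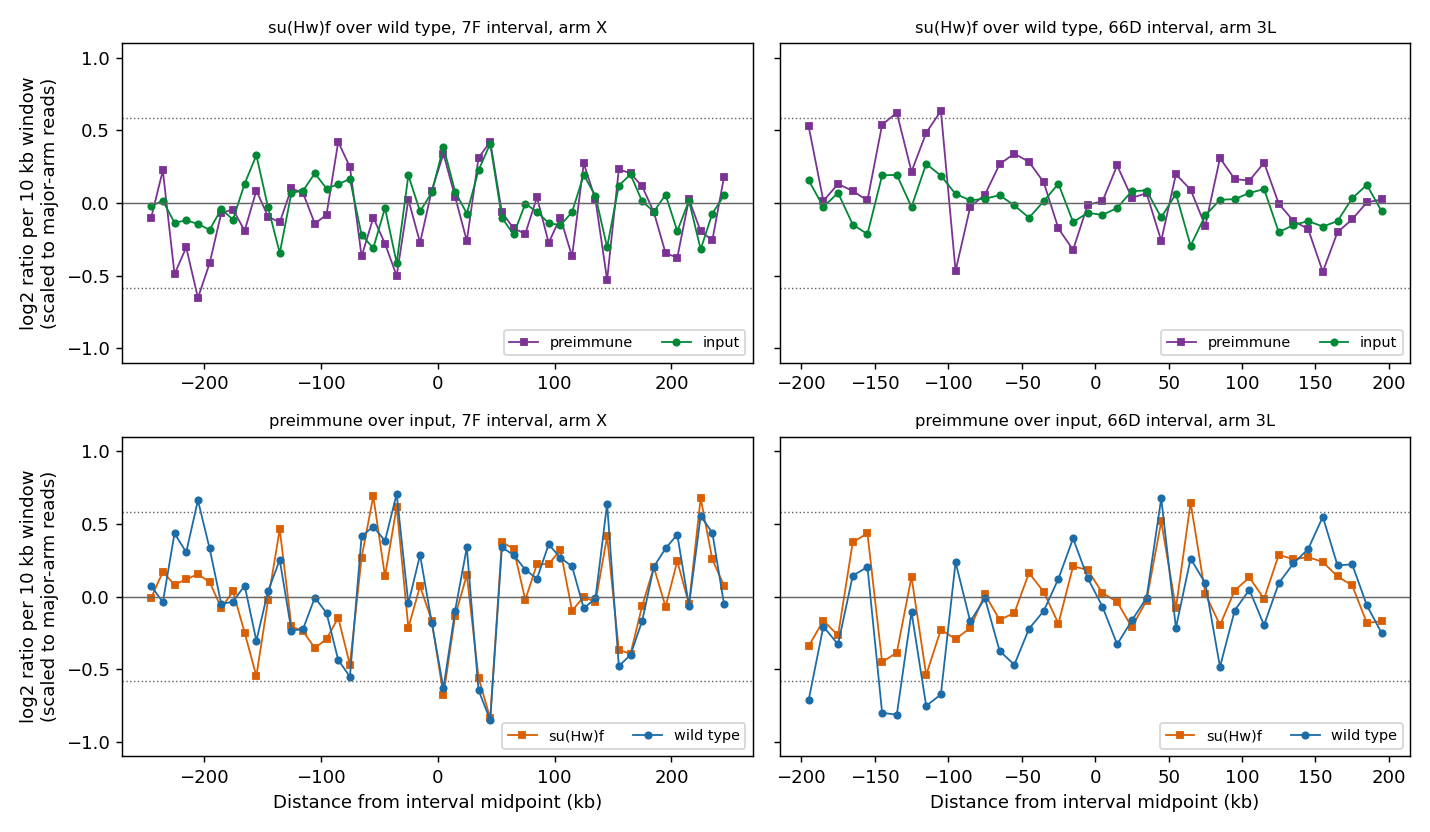
Log2 ratio per 10 kb window (y axis, scaled to reads on the major arms) by distance from the interval midpoint in kb (x axis), for su(Hw)f over wild type (top, preimmune purple and input green) and for preimmune over input (bottom, su(Hw)f orange and wild type blue). Dotted lines mark 1.5-fold; the input ratios between genotypes stay inside them at both intervals, from 0.751 to 1.33 at 7F and from 0.816 to 1.21 at 66D.

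The comparison of preimmune with input asked what the control serum recovers from chorion DNA. At 7F the scaled reads of su(Hw)f were 3939 in preimmune against 4085 in input, and their ratio was 0.964 (0.955 to 0.974). In wild type they were 4164 against 4010, at 1.038 (1.026 to 1.051). Scaled to the arm the su(Hw)f ratio lay on the other side of 1, at 1.025. At 66D those of su(Hw)f were 3601 in preimmune against 3668 in input, at 0.982 (0.971 to 0.992). In wild type they were 3413 against 3637, at 0.938 (0.926 to 0.951).

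In 10 kb windows at 1.5-fold, 3 of 50 at 7F were higher in preimmune than in input in su(Hw)f (4.77% over the major arms) and 2 lower (2.69%), while wild type had 3 higher (7.87%) and 3 lower (7.62%). X 8450001 to 8460000 and X 8490001 to 8500000, both high in the inputs, were lower in both genotypes, at 0.624 and 0.559 in su(Hw)f and at 0.645 and 0.554 in wild type. X 8410001 to 8420000 was higher in both, at 1.54 in su(Hw)f and 1.63 in wild type. At 66D 1 of 40 was higher and 0 lower in su(Hw)f, while wild type had 1 higher and 5 lower. The 5 all lay between 3L 8500001 and 8600000, at 0.569 to 0.627, and each was among the 6 that were raised in su(Hw)f input. Input is the denominator of these ratios, so at both intervals a window high in input is pushed towards a low ratio by construction.

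In 1 kb windows compared at 2-fold, 37 of 495 at 7F were higher in preimmune in su(Hw)f (6.82% over the major arms) and 22 were lower (3.35%). In wild type 55 were higher (9.75%) and 46 were lower (10%). At 66D su(Hw)f had 12 of 395 higher and 8 lower, and wild type had 29 higher and 52 lower. In both genotypes at once 19 windows at 7F were higher (3.28% over the major arms) and 14 lower (2.25%), and 3 at 66D were higher and 7 lower. No window was higher in preimmune in one genotype and lower in the other. Such windows were rare everywhere. Of 113593 on the major arms, 14 were higher in su(Hw)f and lower in wild type, and 5 the reverse. The 7F counts came to 3.84% and 2.83% of 495 windows and the 66D counts to 0.759% and 1.77% of 395.

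The windows named next are the lowest in preimmune over input on the mean of the genotypes. At 7F they were X 8458001 to 8459000, X 8373001 to 8374000 and X 8342001 to 8343000. The first held 210 preimmune reads against 476 input reads in su(Hw)f, at 0.453 (0.384 to 0.534), and 53 against 233 in wild type, at 0.263 (0.191 to 0.356). It lies in the 20 kb window that was second highest in the inputs, and input is the denominator of the ratio. At 66D they were 3L 8560001 to 8561000, 3L 8727001 to 8728000 and 3L 8509001 to 8510000. The first held 223 against 481 in su(Hw)f, at 0.476 (0.405 to 0.560), and 48 against 234 in wild type, at 0.237 (0.170 to 0.325). The other ratios were 0.335 to 0.477 in su(Hw)f, and wild type had 0.240 to 0.368.

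Of the windows highest in preimmune over input, at 7F X 8350001 to 8351000 had 38 preimmune reads against 13 in su(Hw)f and 54 against 10 in wild type, at 3.00 (1.57 to 6.15) and 6.24 (3.15 to 13.8). X 8596001 to 8597000, which overlaps the end of a stretch without reads, was at 2.67 in su(Hw)f and 5.56 in wild type, and X 8655001 to 8656000 was at 2.90 and 3.78. At 66D 3L 8854001 to 8855000 was at 2.40 (1.71 to 3.40) in su(Hw)f and 5.08 (3.63 to 7.25) in wild type. The next were 3L 8696001 to 8697000, at 2.24 and 5.01, and 3L 8848001 to 8849000, at 3.25 and 2.69, in the same order. The last of these was also among the 3 lowest 66D windows of su(Hw)f input over wild-type input. Its count of 37 reads in su(Hw)f input enters both ratios.

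Gaps and narrow spikes were counted apart from the broad windows. Windows of 100 bp with no reads in all 4 libraries numbered 120 of 5000 at 7F and 73 of 4000 at 66D, that is 2.4% and 1.82%, against 6.36% of the major arms. The longest gaps at 7F were X 8593101 to 8596300 (3200 bp), X 8644701 to 8647000 (2300 bp) and X 8506601 to 8507500 (900 bp). At 66D they were 3L 8784401 to 8789700 (5300 bp), 3L 8586501 to 8587100 (600 bp) and 3L 8808301 to 8808800 (500 bp). The longest fills most of 3L 8785001 to 8790000, which held 5 reads in su(Hw)f preimmune, 8 in wild-type preimmune, 3 in su(Hw)f input and 4 in wild-type input, and it lies in the lowest 66D window of wild-type input. No 500 bp window of either interval reached 6 times the median of its library (0.00249% to 0.00955% over the major arms). The highest were X 8342501 to 8343000, at 5.14 in su(Hw)f input, and X 8246001 to 8246500, at 4.74 in wild-type preimmune. No 1 kb window was absent in one genotype, that is at under 5% of the other's scaled count, among those with at least 40 reads in the other genotype's pair of libraries, 494 for su(Hw)f (0.139% over the major arms) and 492 for wild type (0.0794%) at 7F and 395 each at 66D.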

How the data were processed

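The authors deposited 1 file per library with read counts per 100 bp window, as a wiggle track, per the file headers. These counts are whole numbers and not scaled. Per the submitters' processing notes, the genome build was dm3 and Partek 6.5 was used. Aligner, duplicate handling and repeat handling: not given in the sources used here. Duplicates left after 15 PCR cycles would widen the scatter, and dropped repeats would leave gaps.

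Counts were summed to 1, 5, 10 and 20 kb with Python 3.11.15 and scipy 1.17.1. Levels within a library need no scaling. Ratios between libraries were scaled to reads on the 6 major arms. Windows were called at 1.5-fold with 50 counts (10 kb) or 2-fold with 20 counts (1 kb). Each group had 1 library, so no test was run. Functions were tested on simulated data. Named regions are the highest and lowest 20 kb window of each input, the 3 highest and lowest 1 kb windows of each ratio and the 3 longest gaps, and other windows were named after their values were seen. Alternatives were other window lengths, thresholds, centres and scalings. The intervals, lists and call rules were chosen with earlier results of these data known. No dm3 sequence or annotation was used here, so the planned promoter search was not run.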

Additional observations from a re-analysis of the deposited data

Results flagged for a closer look

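In 4 measures the genotypes lay on opposite sides of 1 with counting intervals that exclude 1. These measures were listed because they differed in this way. The intervals hold counting error only, and the spread between windows was far wider. With 1 library in each group the differences were not tested. At 7F preimmune over input was 0.964 in su(Hw)f and 1.038 in wild type, and the su(Hw)f value was 1.025 when scaled to the arm. The 7F level over the rest of X in preimmune was 0.990 in su(Hw)f and 1.047 in wild type, and without windows empty in all libraries both were below 1, at 0.937 in su(Hw)f and 0.991 in wild type. At 66D the centre over flanks in preimmune was 0.960 in su(Hw)f and 1.025 in wild type. Without windows empty in all libraries it was 0.940 and 1.004 in the same order. Of the 400 kb tiles, the interval's own included, 67.3% in su(Hw)f and 36.4% in wild type were at or above the 66D value. The lower-coordinate over the higher-coordinate side of 66D in preimmune was 1.061 in su(Hw)f and 0.944 in wild type.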

How the results depend on the processing

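No paired analysis was possible because every group has a single library. Of the alternatives for the inputs and the comparisons between libraries, 56 stayed within counting error or 1.5 times the count and 76 did not. For the preimmune libraries 29 did and 39 did not. Some alternatives changed the window length or the threshold, which by itself changes a count of windows or the height of the highest window. The tally is therefore not a measure of how unstable the results were. Values are given for 7F su(Hw)f input, 7F wild-type input, 66D su(Hw)f input and 66D wild-type input, in that order. The level over the arm was 0.983, 0.965, 1.104 and 1.09 over all major arms, 0.923, 1.0, 1.23 and 1.20 by median 100 bp windows, which hold whole reads only, and 0.914, 0.923, 1.11 and 1.08 without empty windows. The centre over flanks was 1.13, 1.08, 0.913 and 0.939 with a centre of 200 kb, and 0.879 and 0.937 at 66D with 40 kb. It was 1.31, 1.18 and 0.877 without empty windows and 1.14, 1.08 and 0.925 by median 1 kb windows, without the last input in both. At its highest position, an alternative added after seeing the data, it was 1.30 and 1.20 at 66D. The highest window was 2.26, 1.65, 1.95 and 1.63 at 5 kb and 2.07, 1.56, 1.79 and 1.53 at 10 kb. Shifted windows gave 1.67, 1.39 and 1.67 for the first 3, and leaving out empty windows gave 1.76 and 1.40 at 7F. Raised windows numbered 15, 6, 19 and 7 at 5 kb. In 10 kb windows at the lower threshold they numbered 11, 3, 17 and 11, or 22%, 6%, 42.5% and 27.5%. The shares over the whole arm were then 28.2%, 21.1%, 25.6% and 17.2%. At that threshold both inputs lay below the arm at 7F and above it at 66D. At 20 kb raised windows numbered 0 in wild-type input at both intervals and 2 in su(Hw)f input at 66D. In 10 kb windows at 2 times the arm median they numbered 1 (2%), 0, 0 and 0. The shares over the whole arm were then 2.99%, 0.134%, 1.22% and 0.122%. Scaled to the arm, su(Hw)f over wild type was 0.990 at 7F and 1.028 at 66D in input and 1.079 at 66D in preimmune. Scaled by the median 1 kb ratio it was 1.066 and 1.056 in input and 0.916 and 1.022 in preimmune. Preimmune over input scaled to the arm was 1.025 in su(Hw)f and 1.072 in wild type at 7F, and 0.954 and 0.909 at 66D. By the median ratio it was 0.875 and 1.025 at 7F and 0.891 in su(Hw)f at 66D. In 5 kb windows at 2-fold no window was higher in preimmune (0 in both genotypes at both intervals). At 7F 0 in su(Hw)f and 1 in wild type were lower, and at 66D 0 and 4 in the same order. Shares over the major arms at this length are not given here. The causes were not tested. The alternatives leave the 66D centre below its flanks and the 7F centre above its flanks in both inputs, except where the 66D segment was moved to its highest position.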
